A study of Mus musculus with 61 samples.

Results

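The 10 mouse genes described here belong to the machinery that switches JAK-STAT signalling on and off. They are the Janus kinase genes Jak1, Jak2, Jak3 and Tyk2, the protein tyrosine phosphatase genes Ptpn1, Ptpn2, Ptpn6 and Ptpn11, the adaptor gene Sh2b3 and the STAT inhibitor gene Pias1. They were taken by symbol from RNA-seq count tables of 24421 genes, all 10 were found, and all 10 passed the filter of at least 10 reads in every fit. Janus kinases sit on the inner tails of cytokine receptors, and when a cytokine draws the receptor chains together they phosphorylate each other, the receptor and then the STAT proteins that carry the signal to the nucleus. In T cells IL-2 and IL-7 signal through JAK1, which rides on the private receptor chains, and JAK3, which rides on the common gamma chain, and the STAT they mainly use is STAT5. Tyrosine phosphatases reverse these phosphorylations, and most of the best known transcriptional feedback on the pathway runs through other genes, such as Cish and the Socs genes.

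The study made 61 libraries from 3 materials. In the first, naive CD4+ T cells sorted from pooled lymph nodes and spleens of WT mice, or of mice that lost Stat5a and Stat5b through Cd4-Cre (Stat5a/b-null), were activated through the T cell receptor and CD28, grown in IL-2 and transduced with a retrovirus. The virus was empty or carried mouse STAT5B, the activating mutant N642H, or the leukemia-associated SH2 domain mutants Y665F or Y665H, with 3 libraries per virus and background, 30 in all. Stat5a/b deletion by Cd4-Cre reaches all cells that passed through the CD4 stage, the virus drives expression from outside the locus, and the genotype entry in the labels names floxed Stat5a/b in all 30 libraries, so the background was read from the titles. In the second, T cells were isolated from spleens of WT mice and of mice with Y665H or Y665F written into their own Stat5b gene. The study describes T cells without interleukin as sequenced right after isolation. T cells of each genotype were cultured with IL-2 and IL-7 (4 libraries each), and Y665F cells were also taken without interleukin (3 libraries). Of these, Y665H replicate 4 equals the sum of replicates 1 and 2 at every one of the 24426 lines of its file, so it was left out, Y665H was counted as 3 libraries, and 14 of the 15 splenic T cell libraries and 60 of all 61 were analysed. In the third, RNA came from whole spleens of unstimulated male mice, with 4 WT, 5 Y665H and 7 Y665F libraries. The labels give an age of 2 months and the strain C57BL/6 for the mice behind all libraries. Where nothing says that libraries of a group came from separate mice, p-values cover only the spread between these libraries.

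Stat5b itself checked the labels of the CD4+ T cells, with 2.78, 5.30 and 9.49 CPM in null cells with the empty vector against 187, 209 and 207 CPM in WT cells with it, where CPM are reads of a gene scaled to the size of its library, with TMM factors set within a material. The CD4+ T cell libraries held between 18825994 and 49850689 reads on genes, the spleen libraries between 24203179 and 43330536, and the splenic T cell libraries fewer, between 2017012 and 27394249. The splenic T cell libraries were uneven in another way, since the summed level of 8 B cell markers was 556 CPM in Y665F replicate 3 and 165 CPM in replicate 4, and between 16.8 and 102 CPM in the other 9 libraries with interleukin. Among spleens, Y665H replicate 1 stood apart from the 4 others of its group, with 133 CPM over 8 neutrophil markers where the others had 373 to 1317 CPM. With the empty vector Cd3e averaged 464 CPM in null and 311 CPM in WT CD4+ T cells, Cd4 averaged 1118 and 942 CPM, and Cd8a stayed below 1 CPM in both. Hbb-bs, a haemoglobin gene, was below 1 CPM in every library, spleens included, so erythroid cells were read from 7 other markers. The 3 materials were scaled separately, and no test was made across them.

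Levels of different genes are compared here only as CPM per kilobase of exon (GENCODE vM21, GRCm38). In WT CD4+ T cells with the empty vector, Ptpn6, which encodes the haematopoietic phosphatase SHP-1, had the highest level of the 10 at 161 ± 23.2 CPM per kb (SD, n = 3). Ptpn1, Jak3, Jak2 and Jak1 followed at 76.0 ± 13.6, 73.4 ± 14.6, 67.0 ± 2.16 and 56.9 ± 5.91 CPM per kb, neighbours that lay within 1 SD of each other except Jak2 and Jak1. Ptpn11 and Ptpn2 were close together at 30.3 ± 6.74 and 29.8 ± 5.78 CPM per kb, and Sh2b3, Tyk2 and Pias1 came last at 15.5 ± 3.41, 13.9 ± 1.75 and 7.49 ± 0.64 CPM per kb. In null cells with the empty vector the order below Ptpn6 changed. Ptpn11 stood behind Ptpn6 and Jak2 alone, at 86.1 ± 8.18 CPM per kb. Ptpn1 fell behind Jak1 and Jak3, at 57.7 ± 9.34 CPM per kb.

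The make-up of the 4 kinases differed widely between the materials. As a share of their summed level per kb, which needs no scaling between libraries, Jak3 held 32.6% ± 4.6 (SD, n = 30) in activated CD4+ T cells, 1.38% ± 0.83 (SD, n = 14) in splenic T cells and 4.33% ± 1.10 (SD, n = 16) in spleens. Jak1 held 26.7% ± 3.21, 65.9% ± 7.86 and 57.2% ± 2.07 of it in the same order, while Jak2 held 34.3%, 30.8% and 32.0%. The lowest Jak3 share of any CD4+ T cell library was 21.8% and the highest of any other library was 6.21%. The materials also differ in cell type, activation, culture, depth and the share of reads without a gene, and these cannot be told apart. That last share was 28.4% to 36.9% in CD4+ T cells, 63.9% to 85.7% in splenic T cells and 62.8% to 69.4% in spleens. Tyk2, the kinase of interferon and IL-12 receptors, was the least of the 4 in all 10 groups of CD4+ T cells, and Jak3 the least in the 3 groups of spleens and 3 of the 4 groups of splenic T cells. In Y665F splenic T cells with interleukin the 2 were level, at 5.76 ± 2.33 CPM per kb for Jak3 and 5.69 ± 1.70 for Tyk2 (SD, n = 4). Insl3 shares 404 exonic bases with Jak3 on the same strand in GENCODE, 7.55% of Jak3, and 1700084C06Rik overlaps 8.07% of Tyk2 from the opposite strand. Reads in such stretches may be lost or shared, depending on a strand setting that is not given in the sources used here.

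**Figure D1:**
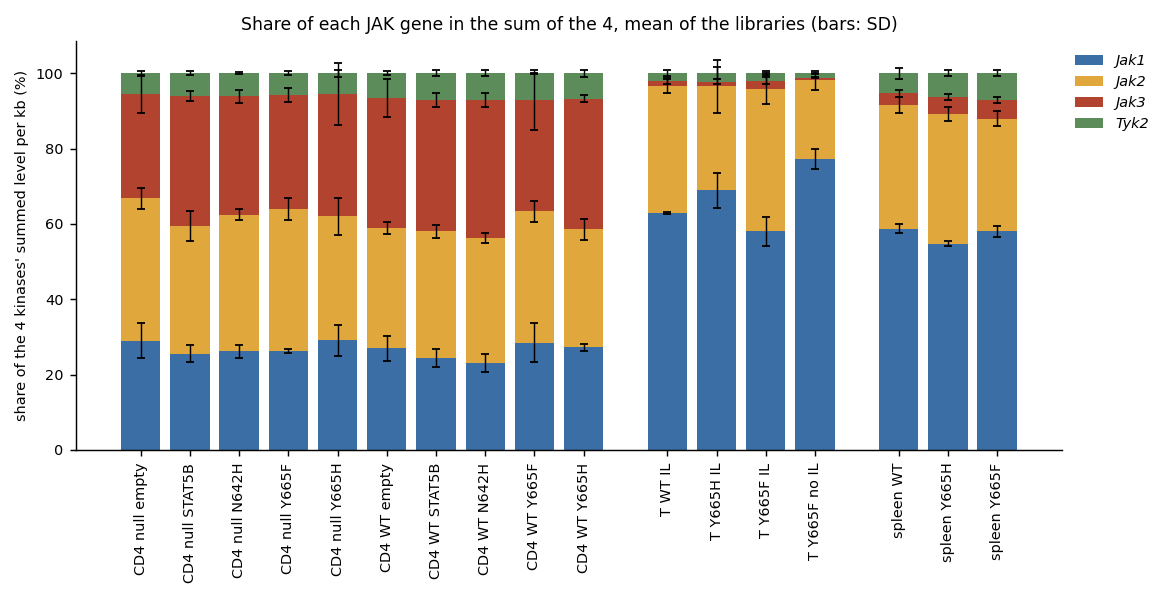
Share of Jak1, Jak2, Jak3 and Tyk2 in their summed level per kb of exon, in percent, in each of the 17 groups (mean of the libraries, with the SD of a gene's share drawn at the top of its block). Jak3 takes about as much as Jak1 and Jak2 in the 10 CD4+ T cell groups and a thin band in the splenic T cells and spleens.

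Of the 10 genes, Ptpn11 had the widest range of group means in CD4+ T cells, 3.31-fold from lowest to highest. It encodes SHP-2, a phosphatase that acts downstream of many growth factor and cytokine receptors and is best known for its positive role in RAS-ERK signalling. The gene lies on chromosome 5 (GRCm38, chr5:121130533-121191397, minus strand). In null cells with the empty vector its level was 715, 607 and 611 CPM, and in WT cells with the same vector 186, 212 and 283 CPM. The lowest null library thus held more than the highest WT library, and the null mean was 2.84 ± 0.27 (SD, n = 3) times the WT mean. edgeR's quasi-likelihood test over both backgrounds gave a difference of 1.51 on the log2 scale, with a standard error of 0.19 (adjusted p = 3.5e-06), and the call held without any 1 of the 6 libraries.

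Reintroduced STAT5B lowered Ptpn11 in null cells to 405, 355 and 424 CPM, N642H to 353, 309 and 323 CPM and Y665F to 360, 293 and 393 CPM. Y665H left 632, 456 and 639 CPM, so that 2 of its 3 libraries lay among those of the empty vector. None of the STAT5B, N642H or Y665F libraries reached the lowest library of the empty vector. Against the empty vector, with a standard error of 0.14 in each case, the log2 difference was -0.71 for STAT5B (adjusted p = 0.013), -1.01 for N642H (adjusted p = 1.4e-04) and -0.92 for Y665F (adjusted p = 3.9e-04). For Y665H it was -0.15 (adjusted p = 0.92), with a 95% interval of -0.41 to 0.12. The calls with N642H and Y665F held without any 1 library. That with STAT5B was lost without empty vector replicate 1 (adjusted p = 0.071), STAT5B replicate 1 (0.059) or STAT5B replicate 2 (0.068). With the 3 constructs that lowered Ptpn11, every null library held more of it than the highest WT library with the empty vector. Of these constructs, only STAT5B was tested against that WT group. With STAT5B Ptpn11 remained 1.74 ± 0.16 times (SD, n = 3) that of WT cells with the empty vector. This was a log2 difference of 0.80 (standard error 0.19, adjusted p = 0.028) that lost its call without WT replicate 1 (adjusted p = 0.26) or 2 (0.21) or STAT5B replicate 1 (0.094) or 3 (0.19).

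In WT cells no vector changed Ptpn11 beyond the test's threshold. Its mean was 227 ± 50.5 CPM with the empty vector and, for STAT5B, N642H, Y665F and Y665H in that order, 215 ± 61.2, 196 ± 42.8, 195 ± 25.0 and 234 ± 38.5 CPM (SD, n = 3 each). Ranked by level, from Y665H down to Y665F, neighbouring groups differed by less than 1 SD. Whether the response differed between backgrounds depended on the fit. The interaction was -0.76 for N642H (standard error 0.26, adjusted p = 0.30), -0.67 for Y665F (adjusted p = 0.43) and -0.63 for STAT5B (adjusted p = 0.94). Libraries with the same replicate number deviated together in both backgrounds, and with that number as a block the same interactions were -0.76 (adjusted p = 4.7e-04), -0.69 (adjusted p = 0.0017) and -0.62 (adjusted p = 0.012).

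**Figure D2:**
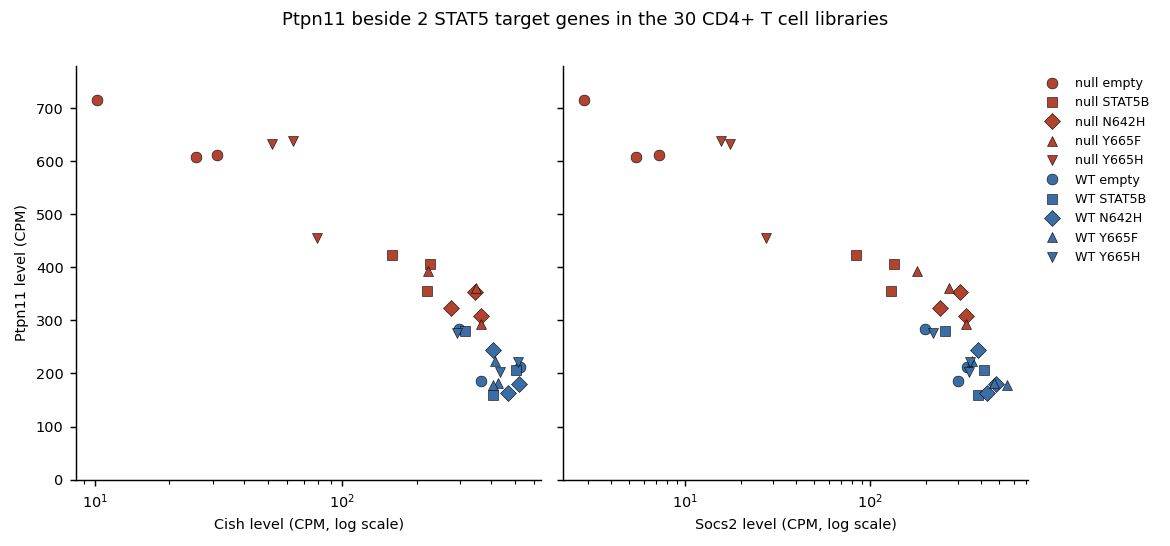
Ptpn11 level (CPM, linear axis) against the levels of Cish and Socs2 (CPM, log axes) in the 30 CD4+ T cell libraries, with null cells in red, WT cells in blue and a symbol for each vector. The null libraries with the empty vector and with Y665H lie at the low end of both STAT5 target genes and the high end of Ptpn11. The WT libraries lie at the low end of Ptpn11. Null cells with N642H average a Socs2 level near that of WT cells with the empty vector, with more Ptpn11.

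The plot of Ptpn11 against Cish and Socs2 sets it beside feedback inhibitors that STAT5 is known to induce. Cish averaged 22.3 CPM in null cells with the empty vector, 65.1 with Y665H, 201 with STAT5B and 328 with N642H, against 396 CPM in WT cells with the empty vector. Socs2 averaged 5.19, 20.2, 116 and 291 CPM in the same groups and 278 CPM in the WT cells. Ptpn11 took the reverse order over those null groups, with 645, 576, 395 and 328 CPM. The null group with Y665F is not in this list.

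The promoters of Ptpn11 and Jak1, both lowered by N642H and Y665F in null cells, follow with that of Cish, which carries the STAT5 motif. They are RefSeq windows on GRCm38.p6 of 250 bases before and 50 after the start, read along the gene's strand, at chr5:121191348-121191647 (minus) for Ptpn11, chr4:101265174-101265473 (minus) for Jak1 and chr9:107296409-107296708 (plus) for Cish. Capitals mark TTCNNNGAA, the GAS element bound by STAT5, in Cish, and TGACGTCA, the palindromic cAMP response element, in Ptpn11 and Jak1.
Ptpn11: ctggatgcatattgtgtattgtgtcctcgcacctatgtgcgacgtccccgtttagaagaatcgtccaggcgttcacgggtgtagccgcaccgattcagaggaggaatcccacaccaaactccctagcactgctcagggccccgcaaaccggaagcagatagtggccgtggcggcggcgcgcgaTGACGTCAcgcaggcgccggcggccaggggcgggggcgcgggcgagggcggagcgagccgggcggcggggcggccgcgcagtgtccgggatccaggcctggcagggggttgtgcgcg
Jak1: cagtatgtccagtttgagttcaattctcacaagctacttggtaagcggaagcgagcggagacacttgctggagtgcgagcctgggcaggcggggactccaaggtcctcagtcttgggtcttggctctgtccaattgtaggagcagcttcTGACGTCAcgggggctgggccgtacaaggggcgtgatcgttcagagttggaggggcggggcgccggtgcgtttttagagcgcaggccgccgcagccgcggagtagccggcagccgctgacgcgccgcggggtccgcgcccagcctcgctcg
Cish: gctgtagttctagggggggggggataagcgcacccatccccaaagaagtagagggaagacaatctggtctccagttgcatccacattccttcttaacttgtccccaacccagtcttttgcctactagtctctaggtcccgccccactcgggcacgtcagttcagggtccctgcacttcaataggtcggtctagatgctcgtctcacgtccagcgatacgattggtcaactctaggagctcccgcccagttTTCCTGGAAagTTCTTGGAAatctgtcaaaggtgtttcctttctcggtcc

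Both motifs read the same on the 2 strands. TTCNNNGAA was found 2 times in the Cish window, at 0 and 11 bases from the start, and in none of the windows of the 9 members that have one (Ptpn2 was not looked up). Of 32851 RefSeq promoters of this length, 8.30% held TTCNNNGAA. TGACGTCA was searched after the sequences had been seen, began at -67 in Ptpn11 and -101 in Jak1, was in none of the windows of the other 7 members, and was in 1.79% of all promoters. A match or its absence in 300 bases says nothing of binding there or elsewhere.

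The other members moved less. Between null and WT cells with the empty vector, 4 of the 10 were called at an adjusted p under 0.05, where 13.9% of 21975 genes were and the median over all genes was -0.12 on the log2 scale. Beside Ptpn11, Jak2 was higher in null cells, at 472, 451 and 485 CPM against 325, 347 and 339 CPM, groups that did not overlap (log2 fold change 0.48, standard error 0.13, adjusted p = 0.016). Ptpn6 was also higher, at 583, 565 and 601 CPM against 385, 514 and 457 CPM (log2 fold change 0.37, standard error 0.12, adjusted p = 0.043). Ptpn1 was lower, at 299, 378 and 281 CPM against 380, 507 and 374 CPM, with 1 null library inside the WT range (log2 fold change -0.40, standard error 0.13, adjusted p = 0.046). PTP1B, its product, removes phosphate from JAK2 and TYK2. Leaving out 1 library, Jak2 lost its call without null replicate 3 (adjusted p = 0.052) or WT replicate 1 (0.060), and Ptpn1 without null replicate 1 (0.15) or 3 (0.19) or WT replicate 2 (0.31). Ptpn6 kept its call in 1 of these 6 fits, that without WT replicate 2, with an adjusted p of up to 0.24. Jak3, Tyk2, Sh2b3 and Pias1 had log2 fold changes between -0.10 and 0.02, and Ptpn2 -0.19. In null cells with STAT5B against WT cells with the empty vector, 1 member was called, Ptpn11, where 1.11% of 21975 genes were.

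**Figure D3:**
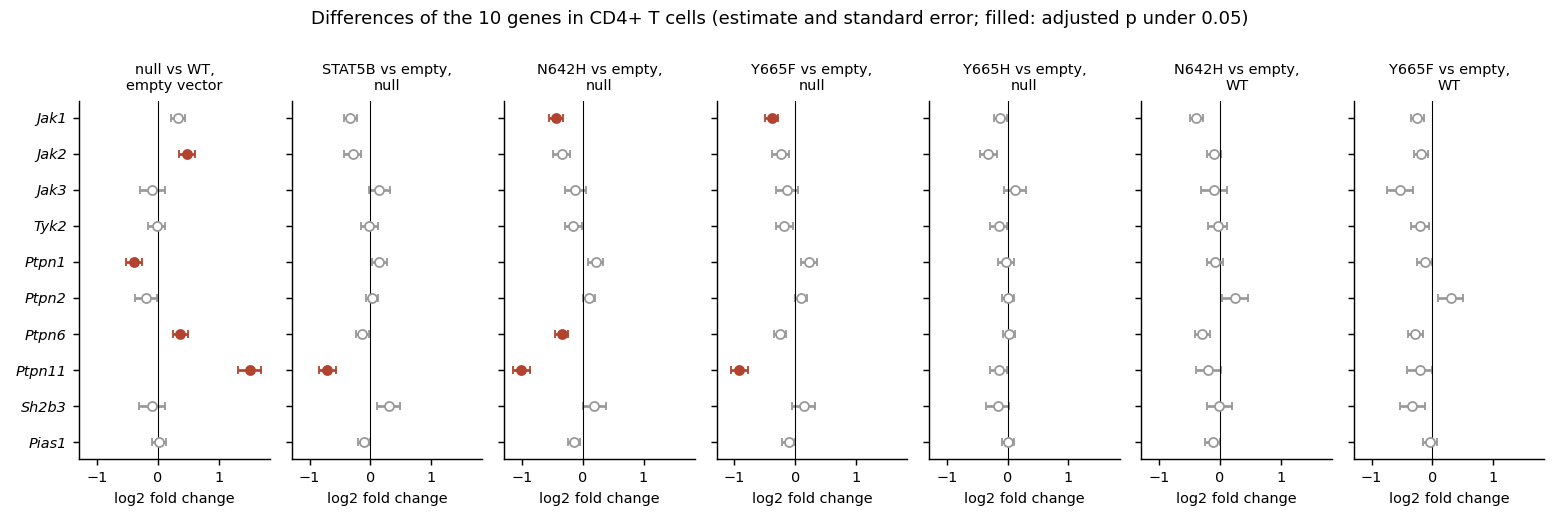
Log2 fold change with its standard error of the 10 genes in 7 comparisons of CD4+ T cells, filled red where the adjusted p was under 0.05 and open grey otherwise. Ptpn11 has the widest differences in the 4 left panels, and no gene is filled with Y665H in null cells or in the WT panels.

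In null cells, STAT5B changed 1 of the 10 members (Ptpn11) where 1.52% of 20113 genes were called, N642H changed 3 (Jak1, Ptpn6 and Ptpn11, all lower) where 11.6% were, and Y665F changed 2 (Jak1 and Ptpn11, both lower) where 9.58% were. Y665H changed 0 where 0.0249% were, with 1 member at an unadjusted p under 0.05 in edgeR and 0 called by DESeq2. Jak1, the kinase shared by the IL-2, IL-7, interferon and IL-6 families of receptors, was at 589, 529 and 438 CPM with the empty vector. It was at 387, 410 and 379 CPM with N642H, all below the empty vector (log2 fold change -0.44, SE 0.11, adjusted p = 0.017), and at 383, 398 and 429 CPM with Y665F (log2 fold change -0.39, standard error 0.11, adjusted p = 0.037). With Y665H it was 545, 441 and 436 CPM. The calls of Jak1 held in 2 of 6 fits without 1 library each. Without empty vector replicate 1 its adjusted p was 0.14 with N642H and 0.23 with Y665F, without replicate 2 it was 0.064 and 0.12, and it was 0.094 without N642H replicate 1, 0.086 without N642H replicate 3, 0.16 without Y665F replicate 1 and 0.15 without Y665F replicate 2. Ptpn6 was at 433, 464 and 507 CPM with N642H (log2 difference -0.35, standard error 0.10, adjusted p = 0.033), and was called in none of the 6 fits that left out 1 library (adjusted p 0.057 to 0.22). Over the same comparison 5 of 12 T cell markers were also lower and 1 higher, and between null and WT cells 4 were higher and 1 lower, with Cd3d, Cd3e, Cd3g and Cd28 in both sets, and their part in the members' differences was not tested.

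With the replicate number as a block, STAT5B changed 2 members, Ptpn11 and Jak1 (log2 fold change -0.33, adjusted p = 0.033), where 9.5% of genes were called. N642H then changed 4, with Jak2 added (log2 fold change -0.35, adjusted p = 0.014), where 20.5% were, and Y665F 4, with Ptpn6 lower (-0.25, adjusted p = 0.040) and Ptpn1 higher (0.24, adjusted p = 0.045), where 18.4% were. Against STAT5B itself, N642H and Y665F changed 0 members where 0.0845% and 0.0199% of genes were called, with 2 and 0 members at an unadjusted p under 0.05 in edgeR and 0 called by DESeq2 in either. Y665H against STAT5B changed 0 where 0.229% were, with 2 members at an unadjusted p under 0.05. Its largest difference was Ptpn11, 0.57 higher on the log2 scale (standard error 0.14, adjusted p = 0.099), and this was called by DESeq2 (adjusted p = 0.0062) and with the block (0.56, adjusted p = 0.0020), where 4.18% of genes were.

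In WT CD4+ T cells 0 members were called with any of the 4 constructs. The share of 20509 genes called was 0.00975% for STAT5B and 1.52% for N642H, and 1.26% for Y665F and 0.00488% for Y665H. In the same order, 0, 2, 2 and 0 members were at an unadjusted p under 0.05 in edgeR, and DESeq2 called 0, 1, 0 and 0. The shares of all genes at that p and under DESeq2 are not given here, so these counts only describe. The member called by DESeq2 was Jak1 with N642H, at 282, 331 and 315 CPM against 392, 460 and 382 CPM with the empty vector, groups that did not overlap (edgeR log2 fold change -0.39, standard error 0.11, adjusted p = 0.12). With the block it was called too (-0.39, adjusted p = 0.0072), where 8.28% of genes were. Jak3 with Y665F ranged over 254, 190 and 362 CPM against 353, 342 and 483 CPM, and was lower in each numbered pair (log2 fold change -0.53, standard error 0.21, adjusted p = 0.25). With the block its difference was -0.55 (adjusted p = 0.013), where 12% of genes were called. Without the block it was called only when Y665F replicate 3 was left out. The responses in null minus WT cells differed for 0 members, where 0.387% of 21975 genes did so for N642H, 0.478% for Y665F and 0.105% for STAT5B. At an unadjusted p under 0.05 edgeR had 1, 2 and 1 members and DESeq2 called 0 in each. With the block 1 member was called in each, Ptpn11 as above, where 4.36%, 4.11% and 1.1% of genes were.

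**Figure D4:**
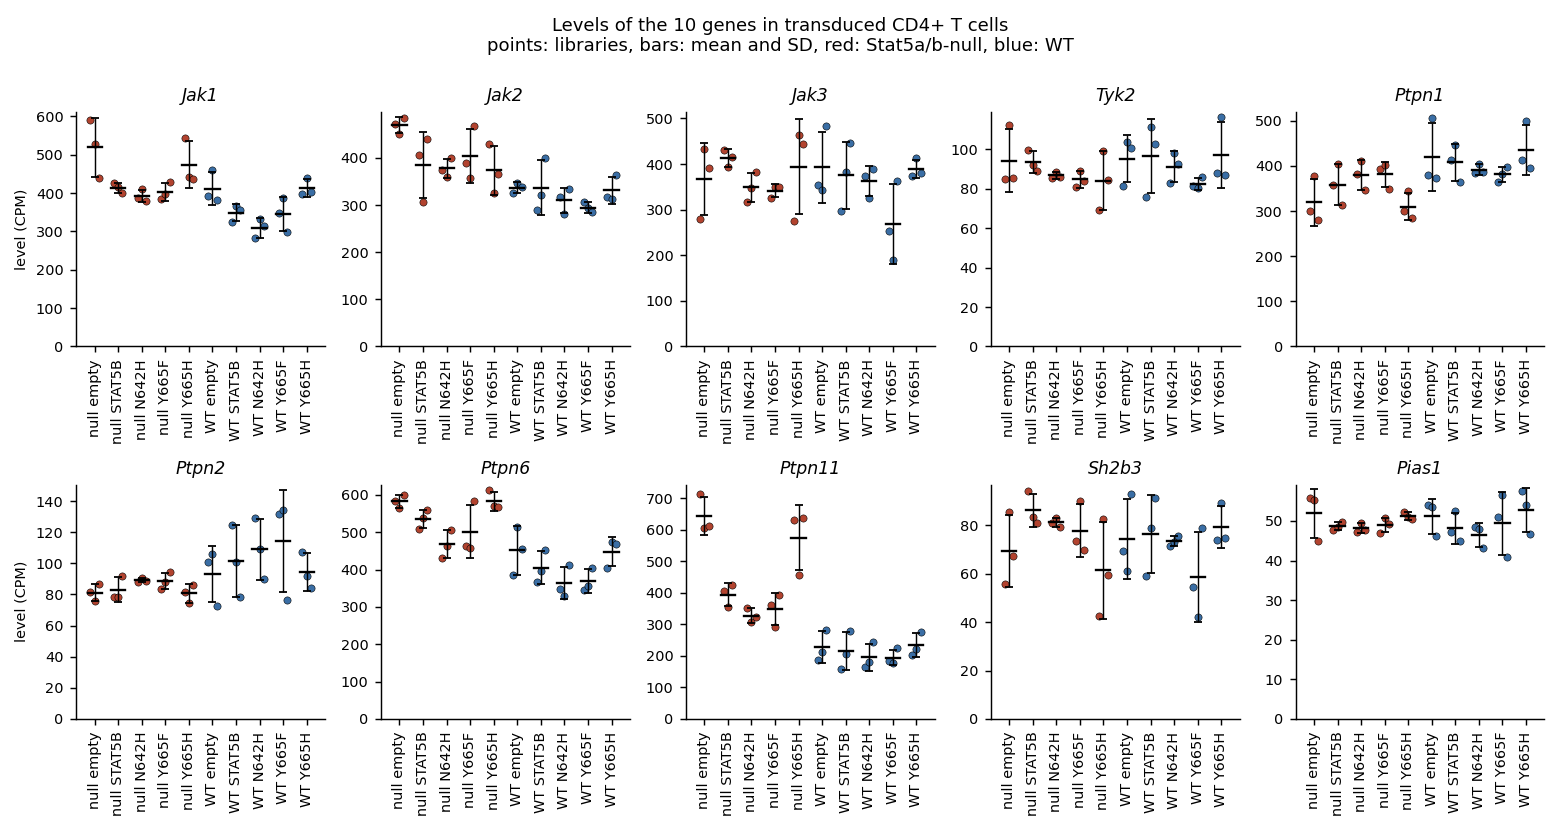
Levels (CPM after TMM scaling, linear axes from 0) of the 10 genes in the 5 null groups (red) and 5 WT groups (blue) of CD4+ T cells, with each library as a point and the mean and SD as bars. In null cells Ptpn11 falls from 645 CPM with the empty vector to 328 CPM with N642H, while Tyk2 and Pias1 keep group means within 1.18 and 1.13 times of each other over all 10 groups.

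Over the 10 group means of the CD4+ T cells, Jak1, Jak2, Ptpn6 and Ptpn11 varied in the same direction. On the log2(CPM + 1) scale Pearson's r was 0.95 for Ptpn6 and Ptpn11, 0.93 for Jak1 and Ptpn6, 0.88 for Jak2 and Ptpn11 and 0.81 for Jak1 and Jak2. Ptpn2, which encodes the TC-PTP that acts on JAK1 and JAK3, varied the other way, at -0.98 with Ptpn6 and -0.90 with both Jak1 and Ptpn11, over group means between 80.6 and 114 CPM. These are descriptions over groups that share scaling and background. Among the 9716 genes averaging 5 CPM or more, the patterns most like Jak1 were those of Ablim1 (r = 0.99) and Ikzf1 (0.99), and those most like Jak2 were Ralgapa1 (0.99) and Zdhhc17 (0.99). Jak3 was nearest BC037034 (0.99) and Crtc2 (0.96), and Tyk2, whose levels hardly varied, Wdr91 (0.94) and Zfp687 (0.94).

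The rest of the pathway was read from lists of 64 other genes. Of 21 JAK-binding cytokine receptor genes, 7 were lower and 2 higher in null than in WT cells with the empty vector, led by Il2ra, the high-affinity IL-2 receptor chain (log2 fold change -3.08, standard error 0.25), Il10ra (-2.07) and Il4ra (-2.01). Of 18 other JAK-STAT inhibitor genes, 6 were lower and 3 higher, with Cish at -4.15 and Socs1 at -3.17. Socs2, whose mean levels are given above, was also among the lower. The list-wide median log2 fold changes were -0.20 and -0.01, beside -0.12 over all genes and 0.00 over the 10 members. Among the STAT genes other than the deleted Stat5a and Stat5b, Stat3 was higher in null cells (0.75, standard error 0.16). Of 12 other non-receptor tyrosine phosphatase genes, Ptpn14 (1.43) and Ptpn22 were higher and Ptpn9 (-1.17) was lower. Of 6 genes for adaptors that bind SHP-2, Gab2 was lower in null cells (-1.68, standard error 0.23, adjusted p = 9.7e-06) and higher with N642H in them (1.49, standard error 0.26, adjusted p = 0.0013), opposite in direction to Ptpn11 in both. Its response to N642H was 1.94 larger in null than in WT cells on the log2 scale (standard error 0.32, adjusted p = 0.0012).

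In splenic T cells with IL-2 and IL-7, 0 members differed between Y665F and WT cells, where 1.44% of 22295 genes did, 0 between Y665H and WT cells, where 0% did, and 0 between Y665F and Y665H cells, where 2.74% did. At an unadjusted p under 0.05 edgeR had 0, 0 and 1 members, and DESeq2 called 0, 0 and 1. Between Y665H and WT cells 1073 of all genes were at an unadjusted p under 0.05 in edgeR, and DESeq2 called 13 higher and 12 lower. The member that DESeq2 called was Jak1, with 1546, 1431, 803 and 1020 CPM in Y665F and 1682, 1717 and 1829 CPM in Y665H cells, groups that did not overlap (log2 difference -0.54 in edgeR, standard error 0.24, adjusted p = 0.29, against 0.027 in DESeq2). Its 2 lowest values came from the Y665F libraries with the most B cell marker RNA, whose erythroid marker sums were 1077 and 93.2 CPM against 9.76 and 17.8 CPM in the other two. Their part in the result was not tested, and without both the difference was -0.27 (adjusted p = 0.80). In bulk RNA, fewer cells of a type and less RNA per cell cannot be told apart. Jak3 was at most 44.7 CPM in any splenic T cell library and varied over 3-fold within the WT group, from 14.7 to 44.3 CPM.

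Between Y665F splenic T cells with and without interleukin 1 member differed, Jak1, where 3.08% of 22295 genes were called. The cells with interleukin had been cultured, while the study describes those without as sequenced right after isolation. The effects of culture and of interleukin therefore cannot be told apart here. The samples held no WT or Y665H splenic T cells without interleukin, so the difference cannot be compared between genotypes. Jak1 was at 2145, 2016 and 3009 CPM without interleukin and between 803 and 1546 CPM with it, so the groups did not overlap (log2 fold change -0.99, standard error 0.24, adjusted p = 0.016). The median over all genes was -0.13, or -0.27 with RLE size factors, under which Jak1 kept its call. Its call was lost without replicate 3 of the cells without interleukin (adjusted p = 0.15) or Y665F replicate 4 with it (0.065), and without Y665F replicates 3 and 4 the difference was -0.69 (adjusted p = 0.085). Ptpn1 was at 60.6, 56.7 and 77.6 CPM without and 122, 121, 74.0 and 119.5 CPM with interleukin, 3 of the 4 libraries with it above every library without (log2 fold change 0.75, standard error 0.23, adjusted p = 0.072). Ptpn2 was at 123, 141 and 140.3 CPM without and 206, 212, 189 and 169.9 CPM with interleukin, groups that did not overlap (log2 fold change 0.53, standard error 0.21, adjusted p = 0.23). Jak3 was 1.06 higher with interleukin (standard error 0.38, adjusted p = 0.16) and Ptpn6 0.89 (standard error 0.32, adjusted p = 0.16). Without Y665F replicate 3, the shallow library with the most B cell and erythroid marker RNA, 4 members were called, with Ptpn1 at 0.89 (adjusted p = 0.012), Jak3 at 1.26 (adjusted p = 0.037) and Ptpn6 at 1.10 (adjusted p = 0.022). The 3.08% above belongs to the main fit, and the share of all genes called without replicate 3 is not given here. Whether calls rose over all genes alike is thus left unsaid. With replicate 4 of the Y665H cells kept in the fit, Ptpn1 was also called (0.75, standard error 0.20, adjusted p = 0.033). Over the same groups 3 of 5 tested NK cell markers were higher with interleukin, with summed levels of 384 to 549 CPM against 117 to 187 CPM, Cd8a was higher and Cd28 lower among 12 T cell markers, and their part in these differences was not tested. The share of Jak1 in the 4 kinases was 77.3% ± 2.72 (SD, n = 3) without interleukin and 58.0% ± 3.89 (SD, n = 4) with it.

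Beside the members, 6 of 21 receptor genes were higher and 2 lower with interleukin, among them Il12rb2 (log2 fold change 2.49, standard error 0.35), Il2ra (2.35, standard error 0.37) and, lower, Il7r (-2.72, standard error 0.27). Of the 18 other inhibitor genes 4 were higher, including Cish (2.80, standard error 0.49), Socs3 (1.84, standard error 0.36) and Socs2 (1.74, standard error 0.36), and 0 were lower. Among the STAT genes, Stat2 rose by 1.93 on the log2 scale (standard error 0.29). Between Y665F and Y665H cells with interleukin, 2 of the 12 other phosphatase genes were higher in Y665F cells, Ptpn13 (2.11, standard error 0.36) and Ptpn14 (1.76, standard error 0.46). Over the same 2 groups 1 of 8 B cell, 0 of 7 erythroid and 3 of 5 tested NK cell markers were called higher in Y665F cells, and Cd28 lower. Median log2 fold changes of these 3 lists were 2.15, 2.63 and 1.78, and -0.47 over 12 T cell markers, beside 0.15 over all genes. Summed erythroid markers ranged from 9.76 to 1077 CPM in Y665F and from 18.1 to 35.6 CPM in Y665H cells. The part of these markers in the phosphatase differences was not tested.

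**Figure D5:**
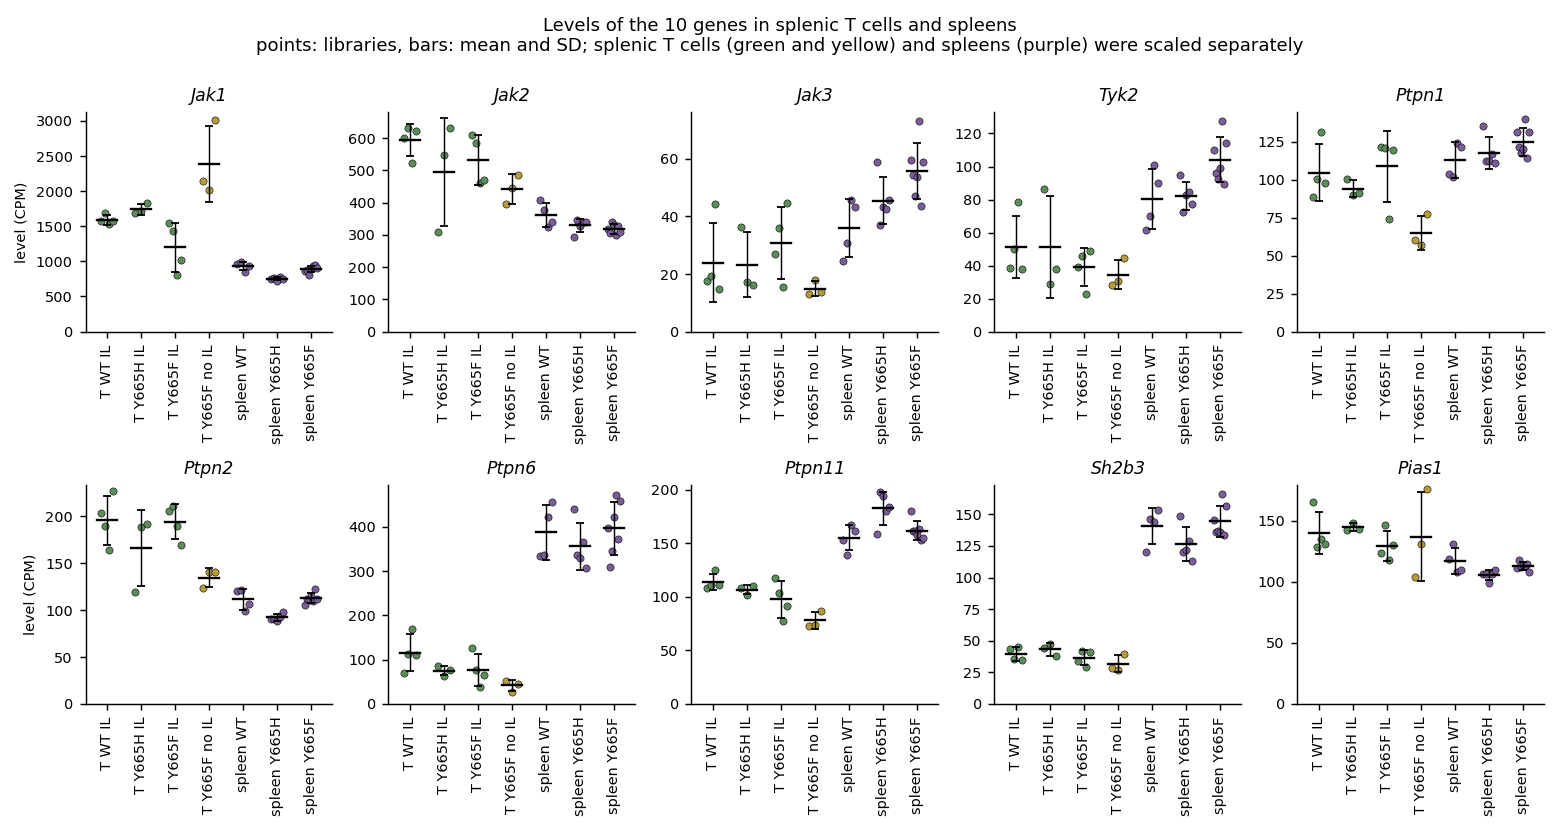
Levels (CPM after TMM scaling within each material, linear axes from 0) of the 10 genes in 4 splenic T cell groups (green with interleukin, yellow without) and 3 spleen groups (purple), with each library as a point and the mean and SD as bars. Jak1 is highest in T cells without interleukin, and in spleens the 5 Y665H libraries lie below all WT and Y665F libraries for it.

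In spleens the differences were under 1 on the log2 scale for every member. Y665H changed 3 of 10 members against WT, where 19.8% of 19418 genes were called. Jak1 was between 725 and 775 CPM in the 5 Y665H spleens and at 956, 987, 853 and 940 CPM in the WT spleens, without overlap (log2 fold change -0.31, standard error 0.06, adjusted p = 0.0020). Ptpn2 was at 90.8, 90.5, 88.9, 92.3 and 98.6 CPM against 121, 121, 98.6 and 106 CPM (log2 fold change -0.28, standard error 0.07, adjusted p = 0.0079), with the highest Y665H library just under the lowest WT library, and lost its call without WT replicate 1 (adjusted p = 0.058) or 2 (0.069). Ptpn11 was higher, at 158, 198, 194, 180 and 184 CPM against 153, 140, 167 and 161 CPM (log2 fold change 0.24, standard error 0.07, adjusted p = 0.028), with Y665H replicate 1 inside the WT range. Its call was lost without WT replicate 1 (adjusted p = 0.052) or 2 (0.086) or Y665H replicate 2 (0.070), 3 (0.077) or 5 (0.057). Without Y665H replicate 1, which had few neutrophil and erythroid transcripts, the differences of Jak1, Ptpn2 and Ptpn11 were -0.28, -0.24 and 0.32, each called.

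Y665F changed 1 member against WT spleens, where 12.2% of 19418 genes were called. It was Jak3, with a lowest, median and highest level of 43.5, 54.3 and 73.1 CPM against 24.6, 30.9, 45.7 and 43.4 CPM in WT spleens (log2 difference 0.62, standard error 0.17, adjusted p = 0.023), and the groups overlapped. It lost its call without WT replicate 1 (adjusted p = 0.095) or 2 (0.084). Tyk2 was 0.37 higher on the log2 scale (standard error 0.13, adjusted p = 0.061). Jak3, Tyk2, Ptpn6, Ptpn1 and Sh2b3 were all highest in the same Y665F library, replicate 5.

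Between Y665F and Y665H spleens 4 members differed, where 25.8% of 19418 genes did. Jak1 (a log2 difference of 0.24, standard error 0.05, adjusted p = 0.0018) and Ptpn2 (0.29, standard error 0.06, adjusted p = 0.0018) were higher in Y665F, every library above every Y665H library, and were called in all 12 fits without 1 library. Tyk2 was higher too (0.34, standard error 0.12, adjusted p = 0.040) and Ptpn11 lower (-0.18, standard error 0.06, adjusted p = 0.046), with overlapping groups. Tyk2 lost its call without Y665F replicate 5 (adjusted p = 0.10) or 7 (0.092) or Y665H replicate 2 (0.11), 3 (0.051) or 5 (0.062). Ptpn11 kept its call in 2 of the 12 fits, those without Y665F replicate 1 or Y665H replicate 1 (adjusted p in the others 0.051 to 0.17), and with RLE size factors its adjusted p was 0.051. Jak2, Ptpn1, Ptpn6, Sh2b3 and Pias1 were called in none of the 3 spleen comparisons, with log2 fold changes from -0.19 to 0.19.

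Spleens are mixtures, and their cell type markers moved over the same groups. Of 12 T cell markers, 8 were lower in Y665H than in WT spleens, 7 were higher in Y665F than in WT, and all 12 were higher in Y665F than in Y665H. Their summed level was 856 to 993 CPM in WT, 583 to 874.5 CPM in Y665H and 1097 to 1440 CPM in Y665F spleens. Of 7 tested erythroid markers, 6 were higher in Y665H than in WT, with sums of 1028 to 6543 CPM against 878 to 1993 CPM, and of 8 tested neutrophil markers 7 were, with sums of 133 to 1317 CPM against 201 to 301 CPM. Of 8 neutrophil markers 4 were also higher in Y665F than in WT, with sums of 344 to 816 CPM, and of 6 megakaryocyte and platelet markers 5 were, with sums of 213 to 339 CPM against 138 to 221 CPM. Of 6 NK cell markers 5 were lower in Y665H than in WT, with sums of 35.3 to 57.6 CPM against 95.8 to 131 CPM. Of 8 B cell markers, 4 were lower in Y665H and 3 lower in Y665F than in WT, with sums of 3618 to 4120 CPM in WT, 2746 to 3868 CPM in Y665H and 2694 to 3367 CPM in Y665F spleens. The part of these cells in the members' differences was not tested.

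The receptors that the kinases serve were also read in spleens. Of 21 receptor genes, 15 were higher and 2 lower in Y665F than in Y665H spleens, among them Il2ra (log2 fold change 1.64, standard error 0.18), while Epor was 2.15 higher in Y665H than in WT spleens (standard error 0.45) and Il9r 1.46 lower in Y665F than in Y665H. The receptor list had a median log2 fold change of 0.34 in that comparison, beside 0.17 over the 10 members and -0.01 over all genes. Cish (1.81, standard error 0.17, Y665F against WT), Socs2 (1.32, standard error 0.10) and Socs1 (1.07, standard error 0.23, both Y665F against Y665H) led the 18 other inhibitor genes. Of the STAT genes, Stat4 differed most (0.65, standard error 0.08, Y665F against Y665H). Of the other phosphatase genes Ptpn22, which dampens T cell receptor signalling, exceeded the Y665H level by 0.48 in Y665F spleens (standard error 0.07), and of the SHP-2 adaptors Gab3 was 0.42 higher and Gab1 0.54 lower.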

How the data were processed

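Total RNA was sequenced after ribosomal RNA depletion (TruSeq Stranded). The authors trimmed reads with Trimmomatic 0.36, aligned them to mm10 with STAR and deposited HTSeq 0.9.1 read counts per gene, 1 file per library. The annotation and the strand setting are not given in the sources used here. Groups came from the labels. The 5 HTSeq summary lines were left out; reads without a gene were 28.4% to 36.9% of lines' reads in CD4+ T cells, 63.9% to 85.7% in splenic T cells and 62.8% to 69.4% in spleens. Y665H splenic T cell replicate 4 equals replicates 1 and 2 added, line by line, so it was left out after this was seen, although the design named all 15 libraries. Every pair of libraries within a group differed by more than counting noise.

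Genes with at least 10 reads over a fit's libraries were tested with edgeR 4.0.16 (quasi-likelihood, TMM, R 4.3.3) and Benjamini-Hochberg adjustment over all genes of the fit, with calls at an adjusted p under 0.05. The fits held the null, WT or all CD4+ T cell libraries, the splenic T cells or the spleens. Standard errors were taken from the F statistic. Libraries of the same replicate number deviated together in CD4+ T cells (30 of 30 pairs over 0.1 in null cells, median correlation 0.467, and 30 of 30 in WT cells, median 0.635), from the data and not the labels. DESeq2 1.42.0, RLE size factors, other filters, the study's fold minimum, each comparison's 2 groups alone, a replicate block and leaving out each library were alternatives. Where a count of members at an unadjusted p under 0.05 or under an alternative stands without the share over all genes, it is no result about the members. The steps were tested on simulated data. Genes outside the members were named as the largest called differences of each list, and likeness by the highest correlation over group means for the kinases. Members and lists were chosen with earlier results of these data known.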

Additional observations from a re-analysis of the deposited data

Results flagged for a closer look

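Among 50 groups of 4 to 7 libraries (10 genes in the 2 splenic T cell groups of 4 and the 3 spleen groups), 4 held a library far from the rest of its group, where chance gives about 1 in 20. In WT splenic T cells with interleukin, Jak3 was at 44.3 CPM in replicate 3 against 14.7 to 19.3 CPM in the others. In Y665F splenic T cells with interleukin, Ptpn1 was at 74.0 CPM in replicate 3 against 119.5 to 122 CPM. That library also held 556 CPM of B cell and 1077 CPM of erythroid markers, whose part in the value was not tested. In spleens, Ptpn1 was at 136 CPM in Y665H replicate 1 against 111 to 117 CPM in the others, and Ptpn11 at 180 CPM in Y665F replicate 1 against 153 to 163 CPM.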

How the results depend on the processing

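Of 20 called differences of the 10 genes, none changed sign in any of the 282 refits made of them, and 207 of these kept the call. The lowest and highest number of members called when 1 library was left out were, in null CD4+ T cells against the empty vector, 0 and 1 with STAT5B, 1 and 2 with N642H and 1 and 3 with Y665F, and 0 and 1 with Y665H against STAT5B. They were 0 and 1 with Y665F in WT cells, 2 and 4 between null and WT cells, 0 and 1 between null cells with STAT5B and WT cells, 0 and 4 for interleukin in splenic T cells, and 0 and 3 for Y665F against WT, 1 and 4 for Y665H against WT and 2 and 5 for Y665F against Y665H spleens. With the study's log2 fold minimum of 1, N642H in null cells kept 1 member and null against WT cells 1 (Ptpn11 in both), and 0 remained with STAT5B or Y665F in null cells, between null cells with STAT5B and WT cells, for interleukin and in all 3 spleen comparisons. DESeq2 called 2 with STAT5B in null cells, 1 for Y665H against STAT5B, 1 with N642H in WT cells, 1 for Y665F against Y665H splenic T cells, 2 for interleukin and 2 for Y665F against WT spleens. RLE size factors and the edgeR filter on low counts each gave 2 for the last of these, and the filter 2 for interleukin and 1 with N642H in WT cells. Without a filter 2 were called between null and WT cells. Fits of the 2 groups alone called 1 with N642H and 1 with Y665F in null cells, 2 between null and WT cells and 1 for Y665H against WT spleens. The replicate block called 2 with STAT5B and 4 with Y665F in null cells, 1 for Y665H against STAT5B, 1 each with N642H and Y665F in WT cells and 1 in each of the 3 null minus WT responses. In splenic T cells and spleens the numbers are not pairs (5 of 19 and 4 of 13 correlations over 0.1), and the block called 0 for interleukin, 0 for Y665F against WT and 2 for Y665F against Y665H spleens. For null against WT cells the block is nested within the background and leaves out the spread between replicates, so its values are not given. Among alternatives chosen after seeing the data, interleukin changed 4 members without the 3 shallowest splenic T cell libraries, which leaves 1 Y665H library, assumed to vary like the others, 2 (Jak1 and Ptpn1) with all 15 libraries as deposited, and 2 (Ptpn1 and Ptpn6) without Y665F replicates 3 and 4. The share of all genes called in each refit is not set beside its count in this section. A changed count may therefore follow a change over all genes, and is no result about the members. The causes of these changes were not tested. Splenic T cell libraries reached down to 2017012 reads, where 1 CPM is about 2.02 reads, and the lowest levels of Jak3 there rest on few reads.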
